A study of Homo sapiens with 4 samples.

Results

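The splicing factors of the SR, hnRNP and RBM families were described as 75 genes, measured by 121 of the 34127 probes on the arrays, which carry 27193 gene names in all. Members were taken by name alone: every non-control probe whose gene symbol starts with SRSF or SFRS and a number, with HNRNP, or with RBM followed by a number or X. Symbols that start with RBMY were left out. The SR family gave 23 probes of 13 genes, the hnRNP family 36 probes of 20 genes and the RBM family 62 probes of 42 genes. RNA came from THP1, an established human monoblastic leukemia line that carries the MLL-AF9 fusion. The cells received 30 nM of a miR-511-5p mimic, a synthetic RNA that supplies the mature miRNA, or 30 nM of negative control #1 mimic, and were cultured in low serum until harvest on day 2. Each of 2 independent experiments gave 1 single-colour array per treatment, so that there are 2 arrays of each group and 4 in all. A mimic raises a miRNA well beyond what a cell makes by itself, and 1 cell line at 1 dose and 1 day limits what the arrays can show. The arrays measure mRNA, and the amount of mimic in the cells was not analysed here.

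SR proteins carry RNA recognition motifs and a domain rich in arginine and serine, bind enhancer sequences in exons and help the spliceosome to define the exon. hnRNP proteins coat nascent transcripts and often act in the opposite sense, through silencer sequences, beside roles in mRNA export, stability and translation. RBM is a naming scheme for proteins with RNA-binding motifs, and its members range from spliceosome subunits to germ cell factors. Many genes of these families control their own mRNA level by alternative splicing of exons that send the transcript to decay. The genes of several SR proteins, SRSF2 above all, are mutated or misregulated in myeloid neoplasms.

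Levels are normalized log2 signals, and a difference is the log2 value with miR-511 mimic minus that with control mimic. Tested probes had a value on all 4 arrays and stood well above background in both replicates of 1 treatment or of both. The threshold was an unadjusted limma p below 0.05, which is 1 part of the study's rule (its further test over the replicate spots of a probe was not applied), with p-values adjusted over all 22638 tested probes beside it. Between 64.8% and 69.3% of all probes were well above background per array. No member spot was saturated. Of 13 measured genes that mark monocytic leukemia cells, 12 were well above background on all 4 arrays, among them CD33 at 13.66 to 13.79. MEIS1 was the exception, and its brighter probe was above background on 2 arrays. Markers of other cells were not all dark: the B cell gene CD79A, the T cell genes CD3D and CD8A, the keratin gene KRT8 and all 3 erythroid genes had a probe above background on all 4 arrays, while MS4A1, EPCAM and CDH1 had none on any.

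The sequences shown are those the results turn on. The mature miRNA is given 5′ to 3′ with its seed, bases 2 to 8, in capitals, as RefSeq lists it at chr10:17845122-17845142 on the plus strand of GRCh38.p14. The probes of 60 bases are given as the array files print them, with the hg19 positions of those files.
hsa-miR-511-5p: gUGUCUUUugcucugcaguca
RBMX A_24_P824592: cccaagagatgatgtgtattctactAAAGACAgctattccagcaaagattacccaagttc
HNRNPA3 A_24_P269895: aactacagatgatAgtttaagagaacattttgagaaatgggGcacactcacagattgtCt
HNRNPA3 A_33_P3422170: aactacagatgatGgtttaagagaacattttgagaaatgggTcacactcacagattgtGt
RBM26 A_23_P218096: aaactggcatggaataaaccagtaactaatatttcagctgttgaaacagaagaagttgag
SRSF11 A_33_P3369550: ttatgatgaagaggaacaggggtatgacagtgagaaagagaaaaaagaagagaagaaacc
The RBMX probe is the only member probe past the threshold, and its capitals mark AAAGACA, the complement of the seed, at bases 26 to 32 of the probe. It lies on the minus strand at chrX:135957516-135957662, a listed span of 147 bases for a probe of 60, and starts at base 833 of its RefSeq transcript. The pair of HNRNPA3 probes is listed at the same place, chr2:178080329-178080388 on the plus strand, and capitals mark the 3 bases at which they differ. Counted from the 5′ end of the probes, with A_24_P269895 first, these are A14G, G42T and C59G. The RBM26 probe at chr13:79896499-79896558 (minus strand) and the SRSF11 probe at chr1:70716305-70716364 (plus strand) are shown because they were set apart on a single array.

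Most transcripts of these splicing factors were present, and few differed between the treatments by more than a small amount. Of the 121 member probes, 113, of 70 genes, were tested, and all 113 were well above background on all 4 arrays. Of the 113, 1 (0.885%) passed the unadjusted threshold, against 498 (2.20%) of all tested probes. It was higher with miR-511 mimic, a direction in which 1.27% of all tested probes passed, and 0 member probes passed in the lower direction, where 0.932% of all did. Over all tested probes the split was 287 higher and 211 lower, and it was 216 higher and 262 lower when arrays were scaled to their 75th percentile. After Benjamini-Hochberg adjustment limma called 0 of the 22638 tested probes (0%) and so 0 members. With the experiment number as a block, 894 (3.95%) of all tested probes and the same 1 member probe passed the unadjusted threshold. In RNA from a whole culture, fewer cells that hold a transcript and less of it per cell cannot be told apart.

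The sizes of the differences were small. The median difference of the 113 probes was 0.02 and that of all tested probes 0.01. With the sign dropped, the median was 0.054 for the members and 0.079 for all tested probes. The difference was under 0.2 in size for 102 member probes (90.3%), against 82.2% of all tested probes, and over 0.5 for 2 (1.77%), against 3.64%. How far a true difference could lie from these values was read from the 95% intervals of the limma fit. That fit has no term for the experiment, so shifts between the experiments count as error in the intervals. The intervals stayed within 0.5 of no difference for 84 member probes (74.3%) and within 1 for 108 (95.6%). The shares of all tested probes were 61.7% and 90.7%. For the other 5 member probes a change of 1 on the log2 scale, which is a doubling or a halving, lies inside the interval. The 2 values of the mimic did not overlap with those of the control for 28 member probes (24.8%) and for 25.7% of all tested probes. Of the 28, 22 were higher and 6 lower, and this split was not counted over all tested probes. By the sign of the fitted difference, 68 member probes were higher and 45 lower, and 12157 and 10481 of all tested probes.

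**Figure D1:**
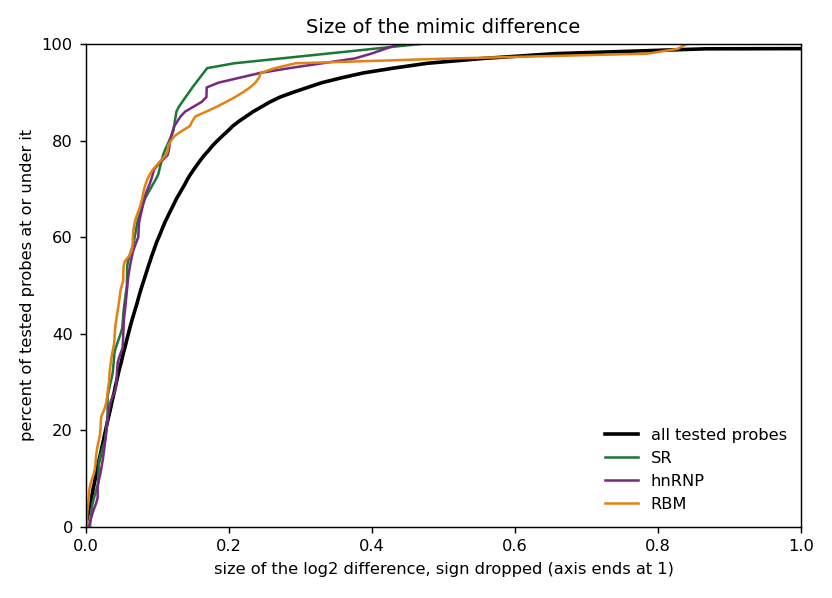
Cumulative share of tested probes (vertical axis, percent) by the size of the log2 difference with its sign dropped (horizontal axis, up to 1), as a black line for all 22638 tested probes and coloured lines for the 23 SR, 36 hnRNP and 54 RBM probes. The median sizes were 0.058 for SR, 0.059 for hnRNP, 0.051 for RBM and 0.079 for all tested probes.

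The called probe reads RBMX, the gene of hnRNP G, which binds RNA cotranscriptionally and acts in exon choice and in DNA repair. Its level was 7.82 and 7.93 with miR-511 mimic in experiments 1 and 2, and 7.54 and 7.60 with control mimic. Both mimic values lay above both control values. The difference was 0.27 in experiment 1 and 0.33 in experiment 2, and 0.30 in the fit (95% interval 0.03 to 0.57, unadjusted p = 0.0362, limma adjusted p = 1). The call was lost when any 1 array was left out, with differences from 0.24 to 0.36 and unadjusted limma p-values from 0.0623 to 0.15. The other RBMX probes did not follow it. A_32_P193646 stood at 11.25 and 11.45 with miR-511 mimic and at 11.40 and 11.41 with control mimic, a difference of -0.05 (95% interval -0.36 to 0.25). A_32_P56392 stood at 6.42 and 8.11 with miR-511 mimic and at 7.93 and 8.23 with control mimic, a difference of -0.82 (95% interval -2.46 to 0.83), which rests on the first of these values. The genes RBMX2 and RBMXL1, set beside it for their similar names alone, had differences of 0.08 and 0.02.

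The complement of the seed, AAAGACA, was searched on the transcript strand of every probe, without any search of the rest of the transcripts. It was found in 331 of the 34127 probes (0.970%) and in 1 of the 121 member probes, the called RBMX probe. Of 204 tested probes that hold these letters, 4 (1.96%) passed the unadjusted threshold, 2 of them higher, and the median difference of the 204 was -0.0048. A match of this kind is a description of the probe and does not show a site that the miRNA uses.

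Among the SR genes, 0 of 23 probes passed the threshold, and the median difference was -0.0061, with 11 probes higher and 12 lower. That sign turned under 75th percentile scaling, where the median was 8e-04, and after normexp background correction, where it was 0.0043. The methods' t-test passed 0 SR probes too. SRSF1, the founding splicing factor of the family and an activator of exon inclusion, stood at 9.70 and 9.64 with miR-511 mimic and at 9.54 and 9.50 with control mimic. Its 2 mimic values lay above its 2 control values, by 0.16 and 0.14 in the 2 experiments, and the fitted difference was 0.15 (95% interval -0.11 to 0.40). SRSF4, another member with a long arginine-serine domain, differed by 0.17 (95% interval -0.23 to 0.57), with 13.34 and 13.12 against 13.19 and 12.94. Here the groups overlapped, since both treatments read lower in experiment 2.

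SRSF2, the factor known as SC35 that marks nuclear speckles, had 2 probes that pointed apart by little, 0.08 and -0.06. SRSF3, the smallest SR protein, with a role in mRNA export, gave 0.01 and -0.06. SRSF5 read -0.13 and -0.07 with probes that share 46 bases, and its values followed the experiment: 13.16 and 13.28 in experiment 1 against 13.46 and 13.59 in experiment 2 for A_23_P377819, with the miR-511 mimic first in each pair. SRSF6 gave 0.05 and -0.11, and SRSF7, which has a zinc knuckle beside its RNA recognition motif, 0.05 and -0.03. SRSF8 differed by -0.03, SRSF9 by 0.02 and SRSF12 by 0.10. The 4 probes of SRSF10, a repressor of splicing in stressed and dividing cells, lay between -0.04 and 0.07. The 95% interval of each of these probes held 0.

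SRSF11, which binds the splice site factor U2AF, was the SR gene whose probes lay furthest apart. A_23_P11664, printed at 10 places, stood at 11.86 and 11.76 with miR-511 mimic and at 11.78 and 11.80 with control mimic, a difference of 0.02. A_33_P3293114 stood at 12.17 and 12.07 against 12.22 and 12.27, a difference of -0.12. A_33_P3369550, whose sequence is given above, stood at 10.25 and 10.97 against 11.05 and 11.11, a difference of -0.47 (95% interval -1.20 to 0.26). Only the value in experiment 1 with miR-511 mimic stood apart, and without that array the difference was -0.11. SFRS18, now named PNISR, a speckle protein with an arginine-serine domain, differed by 0.03. That is -0.07 in experiment 1 and 0.14 in experiment 2, as averages over spots that varied widely on 1 array.

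**Figure D2:**
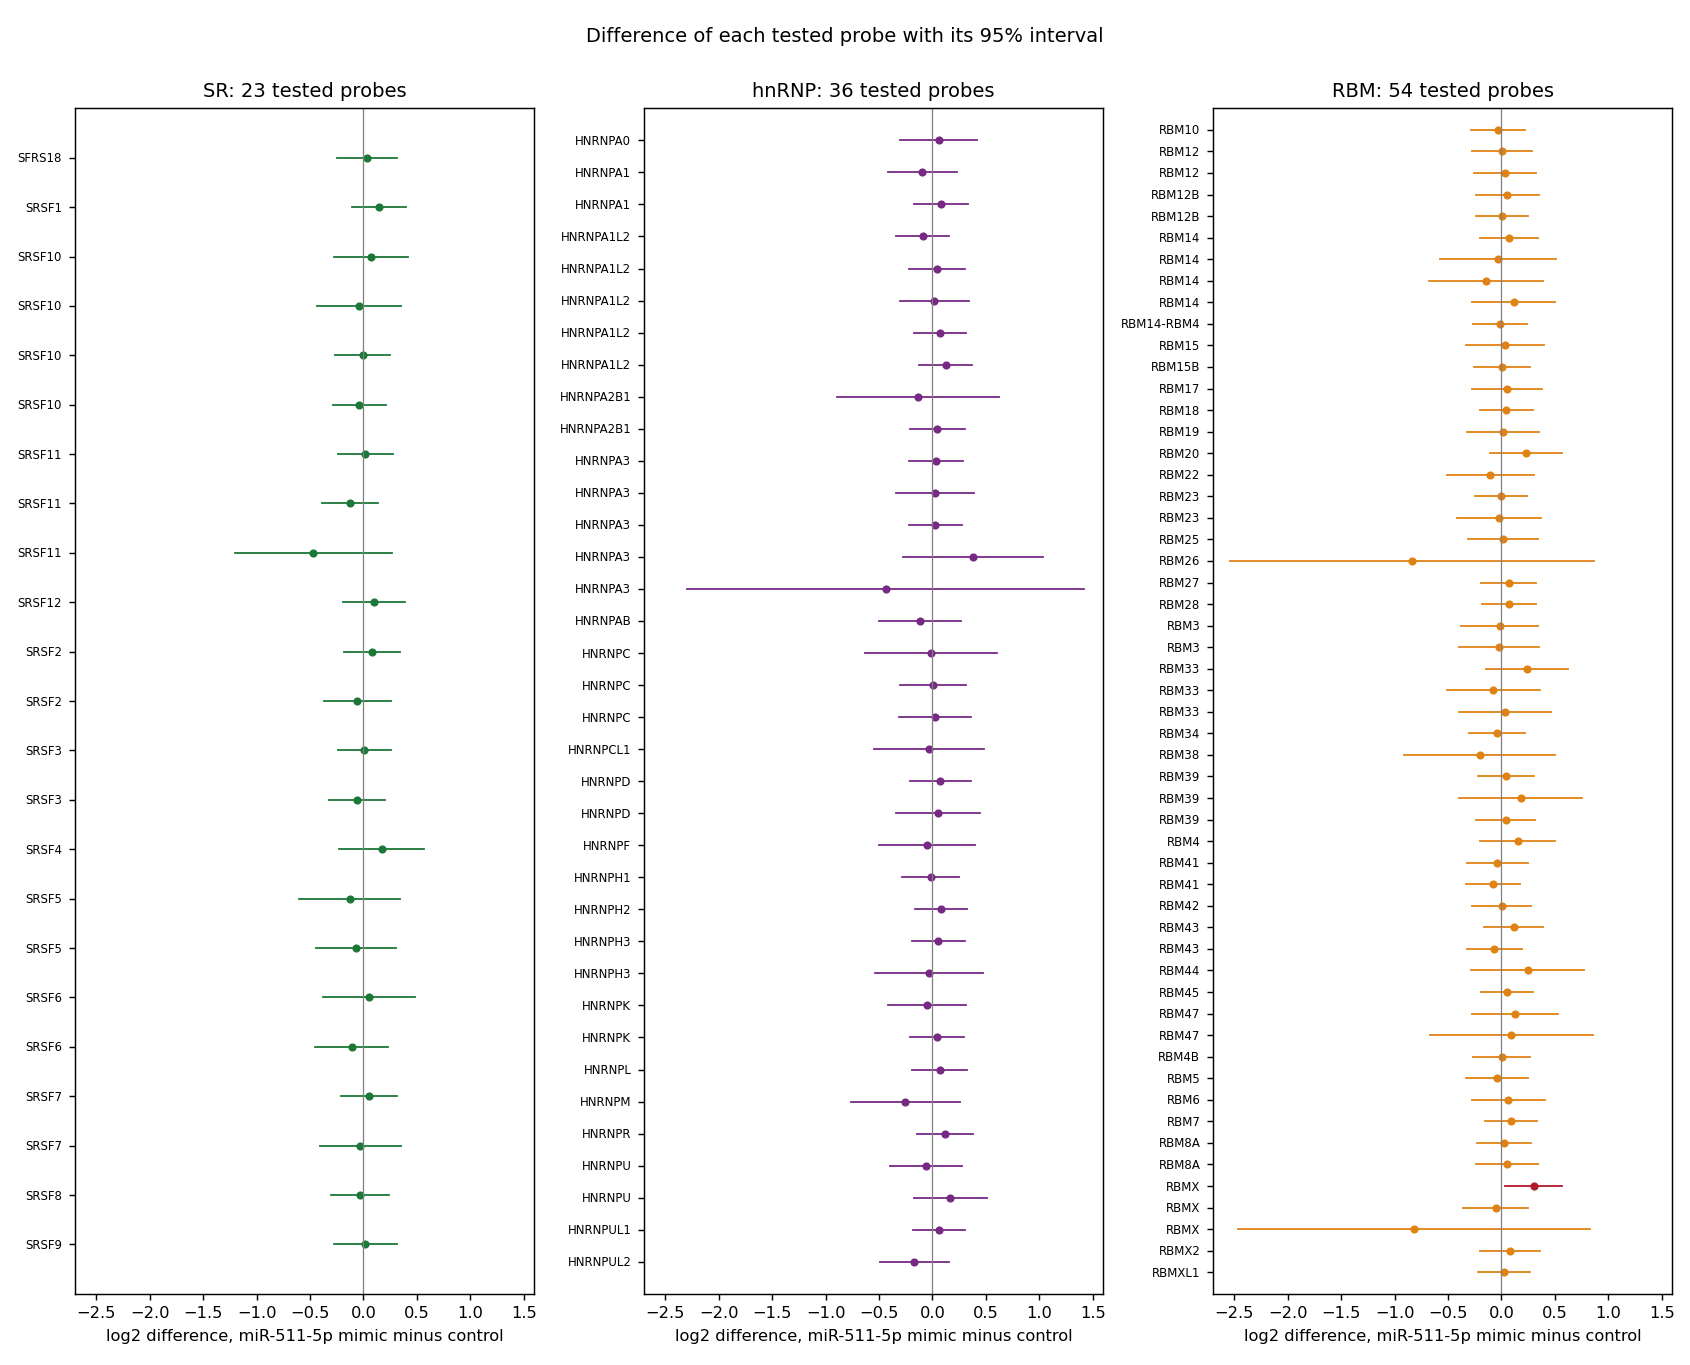
Log2 difference of miR-511 mimic minus control mimic (horizontal axis) for each tested member probe, with the gene on the vertical axis, 1 row per probe in order of gene and probe name, and the 95% interval of the limma fit as a line. The RBMX probe A_24_P824592, in red, is the only one whose interval leaves out 0, and the widest intervals belong to probes of HNRNPA3, RBM26 and RBMX.

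Among the hnRNP genes, 0 of 36 probes passed the threshold, and the median difference was 0.03, with 22 probes higher and 14 lower. Without the control array of experiment 1 that median was -0.04. The methods' t-test passed 1 hnRNP probe, that of HNRNPH2. HNRNPA1, the best known repressor of exon inclusion, read 16.44 and 16.37 with miR-511 mimic and 16.32 and 16.33 with control mimic on A_32_P42197, a difference of 0.08 (95% interval -0.17 to 0.33). Its second probe gave -0.10. The 5 probes named for its retrocopy HNRNPA1L2 lay between -0.09 and 0.12. Their accessions name HNRNPA1 transcripts too for 4 of the 5, so that they read both genes together. HNRNPA2B1, which also sorts RNA for transport, had a probe that turned between the experiments. A_24_P3973 stood at 14.94 and 14.57 with miR-511 mimic and at 14.57 and 15.22 with control mimic, which is 0.38 in experiment 1 and -0.65 in experiment 2. Its other probe gave 0.05 in the fit, with all 4 values between 15.13 and 15.23. HNRNPA0 differed by 0.06 and HNRNPAB by -0.12.

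HNRNPC, which binds runs of uridine and masks cryptic exons, had 3 probes at -0.01, 0.0044 and 0.02. The first, A_24_P178423, is listed on chr2 and the others on chr14. That first probe turned from 0.31 in experiment 1 to -0.33 in experiment 2 (95% interval -0.63 to 0.61). HNRNPD, a protein that binds AU-rich elements and speeds decay, read 0.07 and 0.05 with both probes in 1 direction. Of the factors that bind runs of guanosine, HNRNPF gave 0.22 in experiment 1 and -0.33 in experiment 2, with -0.05 in the fit (95% interval -0.50 to 0.40). HNRNPH1 differed by -0.02 and HNRNPH2 by 0.08. HNRNPH3 gave 0.06 on one probe and -0.03 on the other, which turned from 0.24 to -0.31 between the experiments (95% interval -0.54 to 0.47). HNRNPK, which binds runs of cytidine, gave -0.05 and 0.04, and HNRNPL, a reader of CA repeats, 0.07. HNRNPR differed by 0.12, HNRNPUL1 by 0.06 and HNRNPCL1 by -0.03. HNRNPU, a scaffold of nuclear chromatin and RNA, gave -0.06 and 0.17. HNRNPM, a regulator of splicing in epithelial plasticity, stood at 11.96 and 12.42 with miR-511 mimic and at 12.39 and 12.49 with control mimic. The difference was -0.25 (95% interval -0.76 to 0.25), and without the miR-511 mimic array of experiment 1 it was -0.02. HNRNPUL2 differed by -0.17 (95% interval -0.49 to 0.15), with 7.42 and 7.44 against 7.49 and 7.71.

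The 5 probes of HNRNPA3, a protein of the A and B group that shuttles to the cytoplasm, held both the largest positive difference of any tested member probe and one of the larger negative ones. A_32_P77502 stood at 15.39 and 15.34 with miR-511 mimic and at 14.66 and 15.30 with control mimic, a difference of 0.38 (95% interval -0.27 to 1.04). The single low value was that of the control in experiment 1, and without that array the difference was 0.06. A_33_P3422170 stood at 8.85 and 10.76 with miR-511 mimic and at 10.42 and 10.07 with control mimic, which is -1.57 in experiment 1 and 0.69 in experiment 2. Its fitted difference was -0.44 (95% interval -2.30 to 1.42), and 0.51 without the miR-511 mimic array of experiment 1. A_24_P269895, the probe that differs from it at 3 of 60 bases, stood at 12.95 and 13.05 against 12.85 and 13.12, which is 0.11 and -0.07 in the 2 experiments and 0.02 in the fit. The other HNRNPA3 probes differed by 0.03 each. The accessions of 3 of the 5 also name transcripts of the pseudogene HNRNPA3P1.

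**Figure D3:**
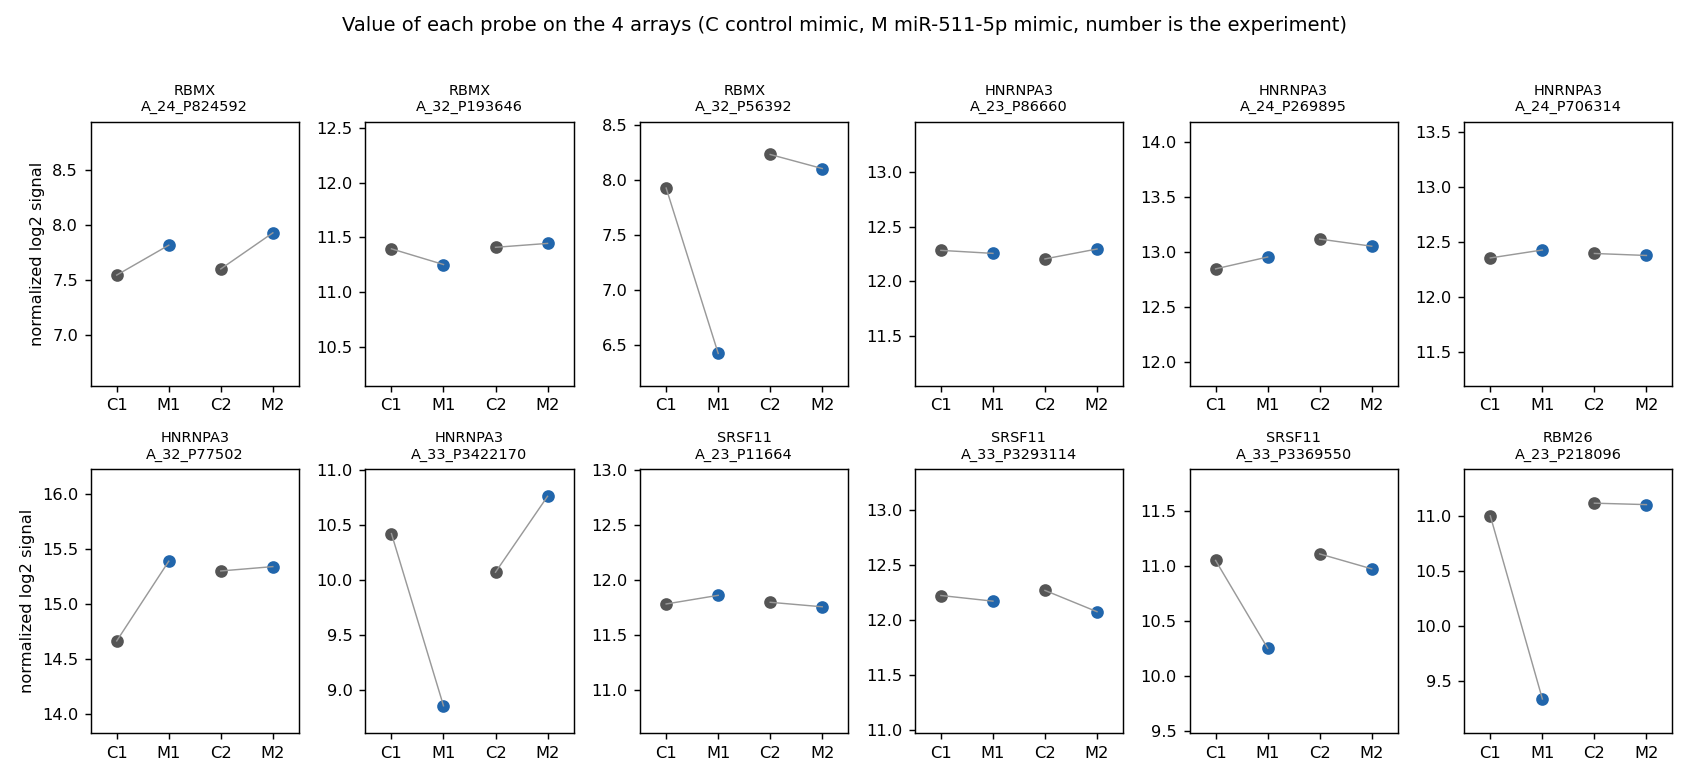
Normalized log2 signal (vertical axis, each panel with its own origin and the same length of scale) of the 12 probes of RBMX, HNRNPA3, SRSF11 and RBM26 on the 4 arrays, with control mimic (C) in grey, miR-511 mimic (M) in blue and lines that join the arrays of an experiment. In the right-most panel of the lower row RBM26 reads 9.34 on the miR-511 mimic array of experiment 1 and 11.00 to 11.12 on the other 3.

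Of the 62 RBM probes, 54 were tested and 1, that of RBMX, passed the threshold. The median difference was 0.02, with 35 probes higher and 19 lower. The 8 probes that were not above background on any array are those of RBM11, RBM24, RBM46, RBMXL2 and RBMXL3, 2 of the 3 for RBM20 and 1 of the 2 for RBM44. RBM20 and RBM24 are known for splicing in heart and skeletal muscle and RBM11 in brain, while RBM44, RBM46 and RBMXL2 are known from germ cells. The remaining RBM20 probe read 6.93 and 6.79 with miR-511 mimic and 6.53 and 6.73 with control mimic, a difference of 0.23 (95% interval -0.11 to 0.56). The remaining RBM44 probe read 4.08 and 4.22 against 3.67 and 4.14, a difference of 0.25 (95% interval -0.28 to 0.77). In each of these genes, then, the probes did not agree on whether a transcript was there.

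Apart from that of RBMX, no tested RBM probe passed the threshold, those of proteins that work in or with the spliceosome included. RBM22, which contacts the catalytic core, gave -0.30 in experiment 1 and 0.09 in experiment 2, and -0.10 in the fit (95% interval -0.51 to 0.31). RBM17 (SPF45), a factor of 3′ splice site choice, differed by 0.05 and RBM25, which works with the U1 particle, by 0.015. RBM5 and RBM10, relatives that promote exon skipping and limit growth, differed by -0.04 and -0.03. RBM39, a partner of U2AF that is the target of aryl sulfonamide degraders, had 3 probes at 0.04, 0.04 and 0.18, of which the first and second share 35 bases, and the third has a 95% interval of -0.39 to 0.76. RBM8A (Y14), a subunit of the exon junction complex, stood at 15.46 and 15.50 with miR-511 mimic and at 15.42 and 15.50 with control mimic on the probe printed at 10 places, and its probes differed by 0.02 and 0.05. RBM15, which guides RNA methylation and is part of a fusion in megakaryoblastic leukemia, differed by 0.03.

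RBM3, a protein made in mild cold, gave -0.02 and -0.03. RBM4, an antagonist of SR proteins, differed by 0.15 (95% interval -0.20 to 0.50), and its probe shares accessions with the readthrough gene RBM14-RBM4, whose own probe gave -0.01. RBM14, a nuclear coactivator, had 4 probes from -0.15 to 0.12. RBM38, a p53 target that binds mRNA, was pulled in opposite directions, 0.27 in experiment 1 and -0.68 in experiment 2. Its levels were 10.80 and 10.45 with miR-511 mimic and 10.53 and 11.13 with control mimic, a difference of -0.21 (95% interval -0.91 to 0.50). RBM47, a cofactor of RNA editing, gave 0.13 and 0.09, and its dimmer probe also turned, from -0.38 to 0.56. RBM33 had 3 probes at 0.24, -0.08 and 0.04, the first with 6.92 and 6.63 against 6.59 and 6.47. RBM7 and RBM27, which adapt nuclear RNA to the exosome, differed by 0.09 and 0.07.

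RBM26, a relative of RBM27 in the same pathway, has a single probe and the largest difference in size of any tested member probe. It stood at 9.34 and 11.11 with miR-511 mimic and at 11.00 and 11.12 with control mimic. Experiment 1 gave -1.67 and experiment 2 -0.01, and the fitted difference was -0.84 (95% interval -2.54 to 0.86). Without the miR-511 mimic array of experiment 1 it was 0.04, and without that of experiment 2 it was -1.72. The variation between pixels of its spot was 38.7% of the mean on that array and 14.2% to 16.2% on the other 3. Whether this has a part in the value was not tested.

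The RBM26 value belongs to a wider set. On the miR-511 mimic array of experiment 1, 4 of the 113 member probes (3.54%) lay more than 0.5 below each of the other 3 arrays, against 691 (3.05%) of all tested probes. They are the probes of RBM26, RBMX (A_32_P56392), HNRNPA3 (A_33_P3422170) and SRSF11 (A_33_P3369550). On the other arrays 136 to 250 of all tested probes lay as far below the rest, and among the members only the HNRNPA3 probe A_32_P77502 did, on the control array of experiment 1. For 3 of the 4 genes other probes were there to compare, and none of those was set apart on that array. Pixel variation at the RBMX spot was 21.23% on that array and 13.85% to 16.52% on the other 3. At the HNRNPA3 spot it was 14.09%, against 9.17% to 15.27%, and at the SRSF11 spot 11.03%, against 7.51% to 8.5%. When the miR-511 mimic array of experiment 2 was left out, so that the set-apart array stood alone for its treatment, these 4 probes and that of HNRNPM were the 5 members past the unadjusted threshold, all lower. That is 4.42% of the member probes, and 1379 (6.09%) of all tested probes passed under the same setting, 1023 of them lower.

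The probes printed at 10 places give the error within an array. For 5 of the 6 such member probes, those of RBM8A, RBM39, HNRNPH2, HNRNPH3 and SRSF11, the standard deviation over spots was 0.031 to 0.15 on each array. The sixth, SFRS18, had 0.52 on the miR-511 mimic array of experiment 1, where 10 spots ranged from 8.01 to 9.75 with a median of 9.65, and 0.039 to 0.22 on the other arrays. The medians over its spots were 9.65, 9.55, 9.65 and 9.52 on the miR-511 mimic and control arrays of experiments 1 and 2, in that order. By these medians miR-511 mimic read higher in both experiments, whereas the averages used in the fit gave -0.07 in experiment 1 and 0.14 in experiment 2. Over all 738 tested probes printed at 10 places, the median spot standard deviation was 0.11 on the miR-511 mimic array of experiment 1 and 0.051 to 0.078 on the other 3, and it was over 0.5 for 22 probes there and for 6 to 11 elsewhere.

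Between the experiments the member probes did not move together. The difference had the same sign in experiments 1 and 2 for 57 of 113 probes (50.4%), against 51.0% of all tested probes. In both experiments 37 member probes were higher and 20 lower, against 6625 and 4913 of all 22638 tested probes. Across the 113 probes, which share the same 4 arrays, Pearson's r between the experiments was -0.26 and Spearman's rho -0.11, and without the 4 probes set apart on 1 array r was -0.28. Over all tested probes r was 0.04. By family r was 0.40 (rho 0.55) over 23 SR probes, -0.60 (rho -0.30) over 36 hnRNP probes and -0.09 (rho -0.18) over 54 RBM probes. Experiment 1 gave a median difference of 0.05, with 76 member probes higher, and experiment 2 a median of -0.0079, with 54 higher. For all 22638 tested probes the medians were 0.03 and -6e-04, with 13078 and 11272 higher. The experiments themselves lay further apart than the treatments: with the sign dropped, the median of experiment 2 minus experiment 1, averaged over the treatments, was 0.086, against 0.054 for the treatments averaged over the experiments. The same held for all tested probes, where these medians were 0.121 and 0.079.

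**Figure D4:**
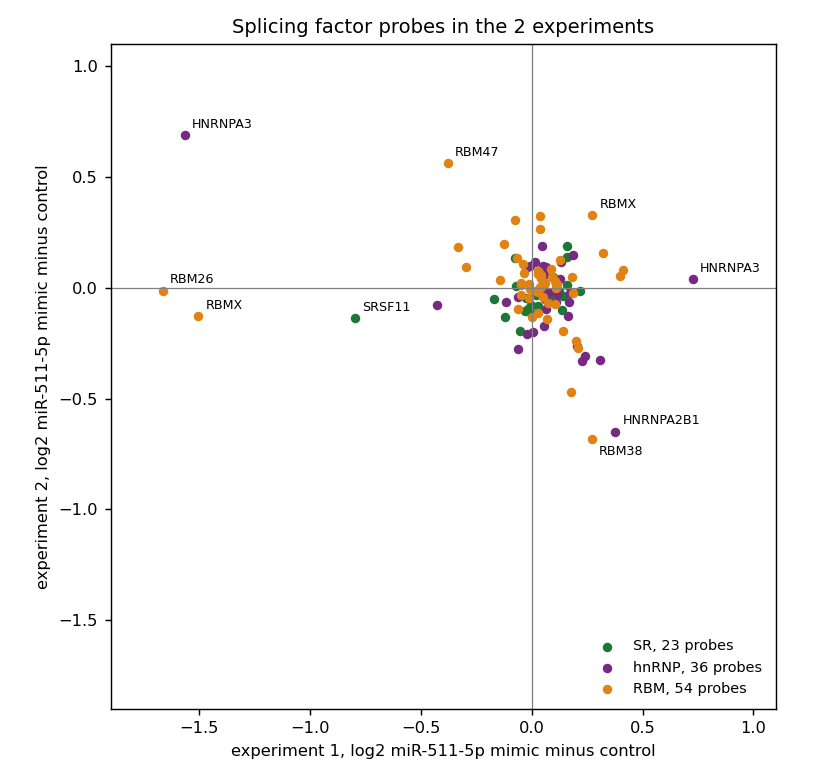
Log2 difference of miR-511 mimic minus control mimic in experiment 1 (horizontal axis) and experiment 2 (vertical axis) for the 113 tested member probes, coloured by family, with names beside probes over 0.5 in size in either experiment and beside the called RBMX probe. Most points crowd around 0, and the 4 labelled points furthest to the left are RBM26 at -1.67 and -0.01, HNRNPA3 A_33_P3422170 at -1.57 and 0.69, RBMX A_32_P56392 at -1.50 and -0.13, and SRSF11 at -0.80 and -0.14 in experiments 1 and 2. HNRNPA3 A_32_P77502 lies furthest to the right, at 0.73 and 0.04.

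Agreement between probes of a gene could be read for 28 genes, with 71 tested probes. All probes of a gene pointed in 1 direction for 10 of the 28 (35.7%), where this held for 53.1% of 3674 genes with several tested probes on the arrays. After normexp background correction the member share was 17.9%. Genes with more probes have more chances to disagree, and among the 19 member genes with 2 probes the share was 9 (47.4%), against 57.2% of 3043. The 10 genes were RBM39, RBM12B, RBM47, RBM8A, RBM12 and HNRNPD, higher with miR-511 mimic, and SRSF5, RBM41, RBM23 and RBM3, lower. None of their probes passed the threshold. The distance between the highest and the lowest difference of a gene had a median of 0.105, against 0.109 over all such genes, and was under 0.2 for 21 of 28 (75%), against 72.2%. The probes lay furthest apart in RBMX (1.12), HNRNPA3 (0.82), SRSF11 (0.49), RBM33 (0.32) and RBM14 (0.26). In the first 3 of these, the lowest probe was one of the 4 set apart on the miR-511 mimic array of experiment 1.

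Other genes of the splicing machinery were counted in 3 lists. Of 86 tested probes of core spliceosome genes, 0 passed limma's unadjusted threshold, and the median difference was 0.0066. With the experiment number as a block 1 did, for SNRPC, a protein of the U1 particle, at -0.32, while the other SNRPC probe stood at 0.19. Of 28 probes of kinases, phosphatases and partners of SR proteins, such as SRPK1 and CLK1, which phosphorylate the arginine-serine domains, 0 passed with or without the block, and the median was 0.02. Of 38 probes of other splicing regulators, 1 passed, and the median was 0.0095. It reads TARDBP, the gene of TDP-43, which represses cryptic exons. That probe stood at 9.82 and 9.79 with miR-511 mimic and at 9.37 and 9.52 with control mimic, a difference of 0.36 (95% interval 0.08 to 0.64, unadjusted p = 0.0235, limma adjusted p = 1). The other TARDBP probes gave -0.02 and 0.05. With the block a probe of ESRP1, an epithelial splicing regulator, passed as well, at -0.67. That probe is dim, at 3.21 and 4.26 with miR-511 mimic and at 4.20 and 4.61 with control mimic. On the miR-511 mimic array of experiment 1 it was not well above background. It was therefore tested only because both control arrays, the higher group, were, and its call is no evidence of a change. Together 1 of 152 probes of these lists passed (0.658%), and 138 of the 152 (90.8%) differed by less than 0.2.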

How the data were processed

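Total RNA of transfected THP1 cells was hybridized to single-colour Agilent arrays. The authors deposited 1 scanner file per array from Agilent Feature Extraction, with a background-subtracted, processed intensity for every spot, and a table of log2 values. The submitters' processing notes name Feature Extraction 10.5.1.1, and the file headers 10.7.3.1. The deposited log2 table keeps the rank order of the scanner intensities (Spearman correlation of at least 1 after rounding) and served as an alternative. Positions in the scanner files are on hg19.

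In R 4.3.3, processed intensities of the 43118 spots that are no controls were put on the log2 scale. Spots marked as non-uniform or population outliers, 232 to 301 per array and 2, 2, 0 and 0 of the 175 member spots on the arrays of experiments 1 and 2 with miR-511 mimic first, were left out. Arrays were quantile normalized over spots and the spots of a probe averaged. To count as well above background, a probe needed that mark on more than 50% of its spots. limma 3.58.1 (lmFit, eBayes) compared the treatments over all 22638 tested probes without a term for the experiment, with 4.14 degrees of freedom and two-sided p-values. The number of arrays limits the precision, and with 2 against 2 an exact permutation test of 1 probe cannot go below p = 0.333. The p-values measure the spread between these arrays.

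The labels mark the arrays of an experiment with a shared number, which pairs them, and same-numbered arrays deviated together from the means of their treatments (correlation 0.271 across probes). The fit with that number as a block was an alternative, beside 75th percentile scaling, normexp background correction (offset 50), other filters on dim probes, marked spots kept, an intensity trend, the methods' t-test (here on averaged probes alone, not over replicate spots as in the study's rule), and each array left out. The same functions were tested on simulated data. The correlation without 4 probes was added after the values were seen.

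Member genes and the other lists were chosen with earlier results of these data known, so no list was tested as a whole. Named are every member past the threshold, a set of main family genes whatever their values, the 5 genes whose probes lie furthest apart, and the 5 largest differences of each direction with the same sign in both experiments; other genes named were chosen after their values were seen. Symbols are those of the files. By accession 119 of 121 member probes matched RefSeq genes of GRCh38.p14, used for names only: 105 under the same single symbol, 1 under another and 13 under several. The list of monocytic leukemia markers held 15 genes, 13 of them on the arrays.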

Additional observations from a re-analysis of the deposited data

How the results depend on the processing

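The count of member probes past the unadjusted threshold was 1, the RBMX probe, under each alternative that keeps the 4 arrays, except that the methods' t-test passed 3, with HNRNPH2 and RBM7 beside it, and 0 after adjustment. Without adjustment that test passed 708 (3.13%) of all tested probes. With each array left out it lay between 0 and 5. Over all tested probes the count of 498 was 265 with normexp, 1029 when dim probes were kept, 894 with the replicate block and 285 with an intensity trend, and between 516 and 1379 with each array left out. For the 3 other splicing lists the count of 1 of 152 (0.658%) was 2 with normexp (1.32%, against 1.17% of all tested probes). With the trend it was 2 (1.32%, against 1.26%), and with dim probes kept 2 of 158 (1.27%, against 3.02%). It was 3 with the replicate block (1.97%, against 3.95%) and 6 in the methods' t-test (3.95%, against 3.13%). Among the members and these lists, the block added the calls of SNRPC and of the dim ESRP1 probe and changed no other. The share of member genes whose probes point in 1 direction was 17.9% after normexp correction, against 35.7%, and the cause was not tested. For 81 named probes under 7 alternatives that keep the 4 arrays, 11 of 567 values changed sign, 9 of them after normexp correction, and none was a call. With an array left out, 81 of 324 did. The slide could not serve as a block, since all arrays came from 1 slide. The median of all tested probes stayed between 0.0022 and 0.0305 under every alternative. Dim probes limit the values: 8 of 121 member probes had no signal above background to compare.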
